A study of Mus musculus with 8 samples.

Results

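The genes described here mark the epidermis and the hair follicle, and they were read on arrays of mouse white adipose tissue from late gestation to early postnatal life. The 30 listed genes fall into 5 groups by role: 4 basal layer genes, 8 suprabasal and differentiation genes, 8 genes of the cornified envelope, 6 desmosome and junction genes, and 4 follicle keratins. Each gene is given by 1 probe, the brightest on average. A named probe was found for 27 of the 30 genes, among 18312 features on the array. Flg, Lce1a1 and Dsp had no named probe and are not analysed here.

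All samples came from C57BL/6 mice with no treatment or genetic change named, at e15.5, e16.5, e17.5, e18.5, P0, P2, P5 and P12. Each stage was 1 pool on 1 array. According to the labels a pool held 3 or more embryos, or 4 in another place. They do not name the depot or describe its dissection. No stage had a replicate, so a difference between stages carries no error and no test. Values are the authors' log2 intensities. All arrays shared nearly the same distribution, with a median of 6.99, and 8318 to 8324 of 25697 probes reached 7.5 on each. Values below 7.5 are treated as near the floor. Of 10 measured adipocyte genes 9 reached 7.5 on at least 1 array, with a mean of 7.48 at e15.5 that compares with 10.57 at e18.5 and 10.98 at P12. Adipoq, which encodes adiponectin, was 13.49 at P12 and 8.43 at e15.5.

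The epidermis is fed by dividing keratinocytes of the basal layer, which express keratins 5 and 14 under the transcription factor p63. Cells that leave this layer switch to keratins 1 and 10, and later build a cross-linked protein envelope from loricrin, involucrin and the small proline-rich and late envelope proteins. In the mouse this barrier is completed shortly before birth, and hair follicles grow down through the dermis towards the fat beneath it. Neither tissue is a part of fat.

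The epidermal genes were brightest at e15.5 and P0, intermediate at e16.5 and P2, and dim on the other 4 arrays. Of the 27 measured genes, 19 reached 7.5 on at least 1 array. By stage, 18 reached it at e15.5, 13 at e16.5, 3 at e17.5, 4 at e18.5, 15 at P0, 10 at P2, with 3 each at P5 and P12. In 16 of the 19 genes e15.5 and P0 were the highest arrays, and in 14 of the 19 the highest 4 were e15.5, e16.5, P0 and P2. The members were chosen with earlier results of these data known. The same orders were not counted over all features, so these counts are a description only. Since tissue was measured in bulk, fewer epidermal cells and less RNA per cell cannot be told apart.

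**Figure D1:**
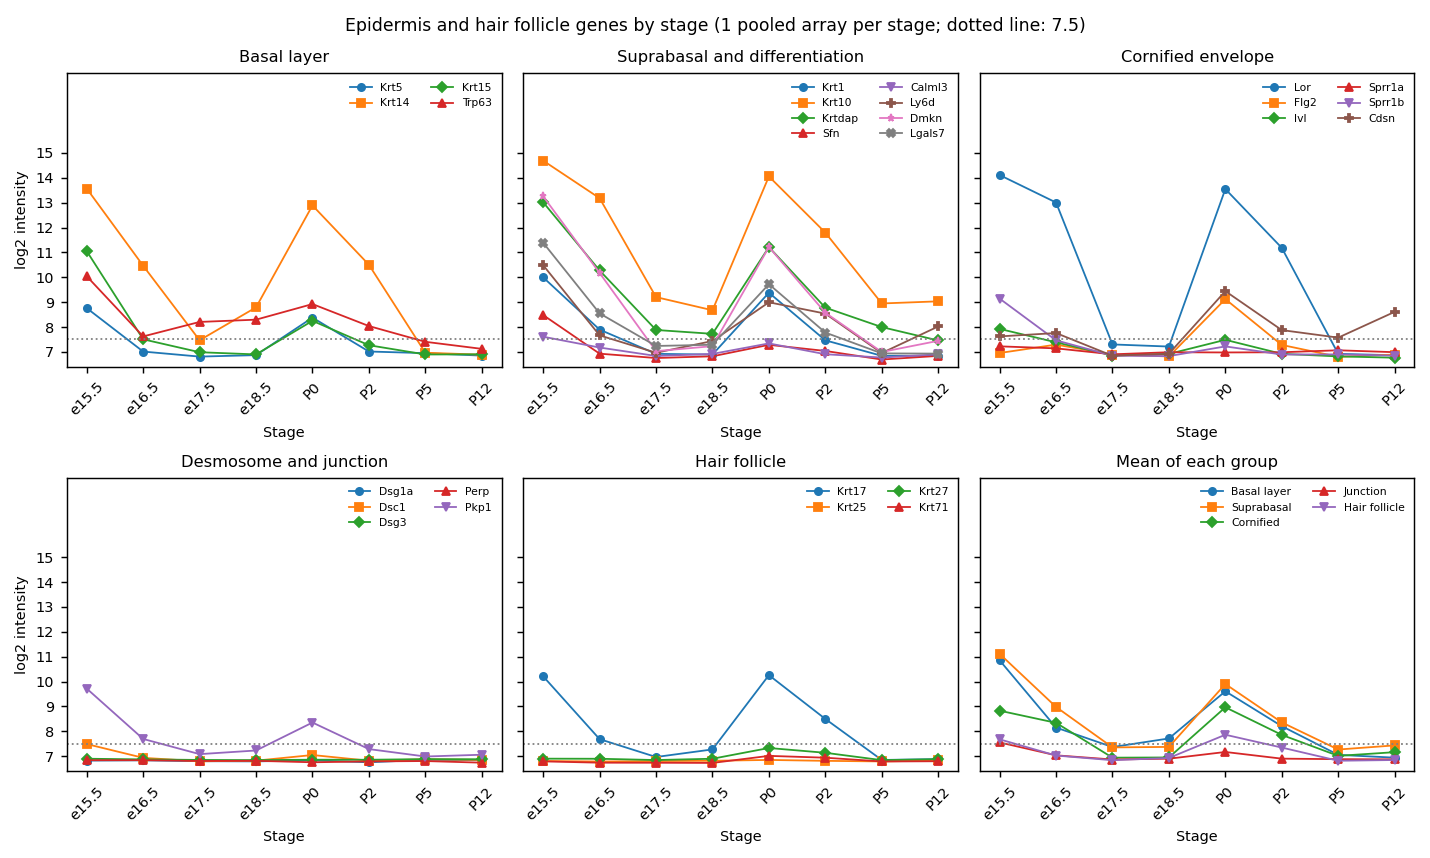
Log2 intensity (y axis) of the 27 measured epidermis and hair follicle genes at 8 stages (x axis), 1 pooled array per stage, in 5 role groups, with the mean of each group in the last panel and a dotted line at 7.5. Most genes that leave the floor peak at e15.5 and P0, while Flg2 and Cdsn are low at e15.5 and 3 of 4 follicle keratins and 4 of 5 junction genes stay below 7.5.

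The basal layer genes alternated over a wide range. Krt14, the type I keratin of dividing keratinocytes, was 13.56 at e15.5, 10.46 at e16.5, 7.47 at e17.5, 8.79 at e18.5, 12.89 at P0, 10.50 at P2, with 6.97 at P5 and 6.89 at P12. Its level at P0 was 17.1-fold that at e18.5, and its levels at P2 and e16.5 were nearly equal (difference 0.04). The probe of Krt5, its type II partner, was 8.38 at P0 and 8.76 at e15.5, and between 6.81 and 7.02 on the other 6 arrays. Those 6 values lie near the floor and have no order.

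Krt15, a keratin of basal cells and of the follicle bulge, differed from Krt14 in its balance between the high arrays. It was 8.25 at P0 against 11.05 at e15.5, 6.97-fold lower at P0, whereas Krt14 was 1.60-fold lower. It was 7.51 at e16.5 and 7.27 or less on the remaining 5 arrays. Trp63, which encodes p63, followed the pattern less closely than the keratins. It was 10.04 at e15.5, 7.62 at e16.5, 8.21 at e17.5, 8.30 at e18.5, 8.92 at P0, 8.04 at P2, with 7.41 at P5 and 7.12 at P12. Trp63 was thus higher at e17.5 and e18.5 than at e16.5, where Krt14 stood above its e17.5 level. Krt15, at 7.51 at e16.5 and 6.99 at e17.5, was near the floor on both arrays.

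Krt14 was also higher at e18.5 (8.79) than at e17.5 (7.47), while Krt5 and Krt15 stayed below 7.5 on both arrays. On the e18.5 array Krt8, a keratin of simple and glandular epithelium, was 8.12 against 7.22 at e17.5, and the milk protein gene Csn3 was 9.35 against 7.01. The mean of the 9 measured simple or glandular epithelium markers was 7.68 at e18.5 and 7.04 at e17.5. Ltf, also in this list, was 9.95 at e18.5 and 7.91 at e17.5. Krt18, Krt19, Krt7 and Elf5 were below 7.5 on both arrays, so the mean rests on few genes. Csn2 and Wap stayed below 7.5 on every array. These markers were not raised on the e18.5 array alone. Krt8 levels were similar elsewhere (P2 8.46, e15.5 8.50, P0 8.02), and Csn3 was also raised after birth (P2 9.18, P0 8.56). The list mean came close to its e18.5 value on the P2 (7.59) and e15.5 (7.54) arrays. Csn3, Ltf and the mean were still highest on the e18.5 array. The part of such epithelium in the e18.5 level of Krt14 and Trp63 was not tested.

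Of the 8 suprabasal genes 7 were at least 2-fold lower at e16.5 than at e15.5 as deposited, as were 1.77% of all 18312 features. Among them Sfn was 6.93 at e16.5, below the floor, and at least 1.97-fold lower when set against 7.5. Krt10, the type I keratin of the spinous layer, was 14.69 at e15.5, 13.18 at e16.5, 9.20 at e17.5, 8.67 at e18.5, 14.05 at P0, 11.79 at P2, with 8.95 at P5 and 9.03 at P12. It was the one member at or above 7.5 on all 8 arrays, with its lowest value at e18.5, 41.6-fold below P0. Krt1, its partner, was highest at e15.5, with 7.90 at e16.5, 9.38 at P0 and 7.47 at P2, and between 6.84 and 6.92 on the other 4 arrays.

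Krtdap, a keratinocyte differentiation protein, was 13.01 at e15.5, 10.27 at e16.5, 11.21 at P0 and 8.78 at P2, and at most 8.0 on the other 4. Dmkn, the secreted protein dermokine, was 13.25 at e15.5, 10.17 at e16.5, 11.22 at P0 and 8.58 at P2, and did not pass 7.45 on the remaining arrays. Lgals7, or galectin-7, was 11.39, 8.55, 9.72 and 7.78 on the same arrays and at most 7.29 elsewhere. These 3 genes were 3.48-fold (Krtdap), 4.11-fold (Dmkn) and 3.17-fold (Lgals7) lower at P0 than at e15.5, against 1.55-fold for Krt10 and 1.53-fold for Krt1.

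Ly6d, a surface protein of keratinocytes that lymphoid progenitors also carry, departed from the group on the late arrays. It was 8.54 at P2, with 6.96 at P5 and 8.02 at P12, and its second probe gave 7.94 at P2, 6.89 at P5, then 7.58 at P12. The T cell gene Cd3g was 8.65, 7.20 and 9.66 on these arrays in stage order, in a list of lymphocyte markers added after the values were seen. The 7 measured genes of that list averaged 7.90 at P2, with 7.36 at P5 and 8.51 at P12, with Ms4a1, Cd79a and Rag1 below 7.5 on every array. The part of lymphoid cells in the Ly6d level was not tested. Sfn, the checkpoint protein 14-3-3 sigma, reached 7.5 at e15.5 only (8.48), and its second probe stayed between 6.84 and 6.91. Calml3, a calmodulin-like protein of differentiating epithelium, reached 7.61 at e15.5 and was below 7.5 on the other 7 arrays.

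The cornified envelope genes did not share a common pattern. Most of them lie in 1 gene-dense cluster: of the 8 genes of this group 7 are on chromosome 3 in the RefSeq gene table. The stretches below, from RefSeq (build GRCm38.p6), run from 250 bases before to 50 bases after the transcription start and read in the direction of the gene. They are shown because these 4 genes of the chromosome 3 cluster, which are not adjacent, had different stage profiles. Capitals mark matches to TGANTCA, the AP-1 motif, and to TATAAA, the TATA box, on either strand.
Lor, chr3:92083093-92083392, minus strand: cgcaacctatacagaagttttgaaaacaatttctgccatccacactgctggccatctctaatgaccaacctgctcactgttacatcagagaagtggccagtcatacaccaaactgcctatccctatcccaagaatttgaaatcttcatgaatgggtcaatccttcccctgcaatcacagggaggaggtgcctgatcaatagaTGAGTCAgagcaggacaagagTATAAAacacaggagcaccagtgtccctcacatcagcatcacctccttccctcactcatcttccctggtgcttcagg
Sprr1b, chr3:92438730-92439029, minus strand: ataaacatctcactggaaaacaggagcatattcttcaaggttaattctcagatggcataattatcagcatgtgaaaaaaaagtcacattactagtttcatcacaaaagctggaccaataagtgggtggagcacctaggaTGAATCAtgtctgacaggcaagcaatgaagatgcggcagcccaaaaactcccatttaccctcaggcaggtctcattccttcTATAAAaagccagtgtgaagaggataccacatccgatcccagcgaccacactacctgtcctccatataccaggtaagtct
Flg2, chr3:93197023-93197322, plus strand: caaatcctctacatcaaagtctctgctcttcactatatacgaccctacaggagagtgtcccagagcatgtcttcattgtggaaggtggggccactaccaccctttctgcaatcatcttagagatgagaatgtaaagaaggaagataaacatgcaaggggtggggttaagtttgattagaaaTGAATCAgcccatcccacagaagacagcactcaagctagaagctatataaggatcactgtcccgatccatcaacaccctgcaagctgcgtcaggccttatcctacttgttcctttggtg
Lce1c, chr3:92678997-92679296, plus strand: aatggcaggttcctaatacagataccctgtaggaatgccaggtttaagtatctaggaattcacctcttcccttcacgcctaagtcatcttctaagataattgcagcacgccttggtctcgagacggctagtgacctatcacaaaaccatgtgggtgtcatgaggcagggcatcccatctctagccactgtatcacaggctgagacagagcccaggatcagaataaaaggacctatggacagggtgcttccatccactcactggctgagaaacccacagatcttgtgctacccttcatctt

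The AP-1 match lies at -48 to -42 from the start in Lor, at -111 to -105 in Sprr1b and at -69 to -63 in Flg2. The Lor and Sprr1b windows also hold TATAAA, at -27 to -22 in Lor and at -30 to -25 in Sprr1b. The Lce1c window holds neither string. Of the 30 listed genes 19 had such a window in the table, with 22 windows in all. TGANTCA was held by 8 of these 19 genes, against 7.81% of all 32851 windows. A gene was counted if any of its windows matched, while the shares are per window, so the 2 are not like for like. The 8 were Dmkn, Flg, Flg2, Ivl, Krtdap, Lor, Sprr1a and Sprr1b, which include relatives such as Sprr1a and Sprr1b. TATAAA was found in 10 of 19 genes (13.6% of all windows), the AP-2 motif GCCNNNGGC in 1 of 19 (16.6%) and the grainyhead motif AACNGGTT in 1 of 19 (2.09%). The AP-1 and TATA matches do not overlap in the windows printed, which hold no AP-2 or grainyhead match. Such matches are letters in a window, not measured binding.

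Lor, which encodes loricrin, the main envelope protein, was 14.11 at e15.5, 13.00 at e16.5, 7.30 at e17.5, 7.22 at e18.5, 13.55 at P0, 11.18 at P2, with 6.92 at P5 and 6.87 at P12. This is the widest swing of the members: P0 stood at least 66.1-fold above e18.5, taking 7.5 as the floor. From e15.5 to e16.5 Lor was 2.15-fold lower, while Krt14 was 8.59-fold and Krt15 11.7-fold lower over the same interval. Sprr1b, a small proline-rich precursor of the envelope, was 7.22 at P0 and 9.14 at e15.5, and at most 7.47 on the other 6 arrays. It was at least 3.12-fold lower at P0 than at e15.5. Its close relative Sprr1a ranged from 6.90 to 7.22 and never left the floor. Ivl, or involucrin, reached 7.5 at e15.5 only (7.93) and was 7.49 at P0.

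Flg2, a filaggrin-family protein of the granular layer, ran the other way. It was 9.12 at P0 against 6.96 at e15.5, at least 3.08-fold higher, and was between 6.80 and 7.29 on the other 6 arrays. Cdsn encodes corneodesmosin, which holds the dead outer cells together. It was 9.44 at P0 against 7.62 at e15.5, 3.53-fold higher, with 7.76 at e16.5, 7.88 at P2 and 8.61 at P12. Its second probe was 7.57 at P0 and 7.04 at e15.5, and stayed at 7.10 at P12. The P12 level and the size of the P0 difference thus rest on a single probe.

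Genes of the same cluster that were not among the 30 showed larger contrasts of this kind. Lce1c, a late cornified envelope gene, was 7.04 at e15.5, 10.51 at e16.5, 7.14 at e17.5, 7.15 at e18.5, 12.16 at P0, then 8.90 at P2, and no more than 7.01 on the last 2 arrays. Lce1m (6.89 at e15.5, 10.05 at e16.5, 11.66 at P0, 8.55 at P2) and Lce1b (6.85, 9.28, 10.96 and 7.91) had the same order. All 9 Lce1 genes with a probe lay between 6.77 and 7.04 at e15.5, on the array where Lor, Krt10 and Krt14 were at their highest. At P0, 7 of the 9 were at least 2-fold higher than at e15.5 as deposited (2.81% of all features), and 5 of the 9 with levels under 7.5 set to 7.5. At e16.5, 4 of the 9 were at least 2-fold higher than at e15.5 either way (0.513% of all features as deposited). The difference P0 over e15.5 was at least 25.4-fold for Lce1c, 17.9-fold for Lce1m and 10.98-fold for Lce1b. Lce1 copies are close paralogues and 1 transcript may bind several of their probes, so the 9 probes are not separate observations.

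**Figure D2:**
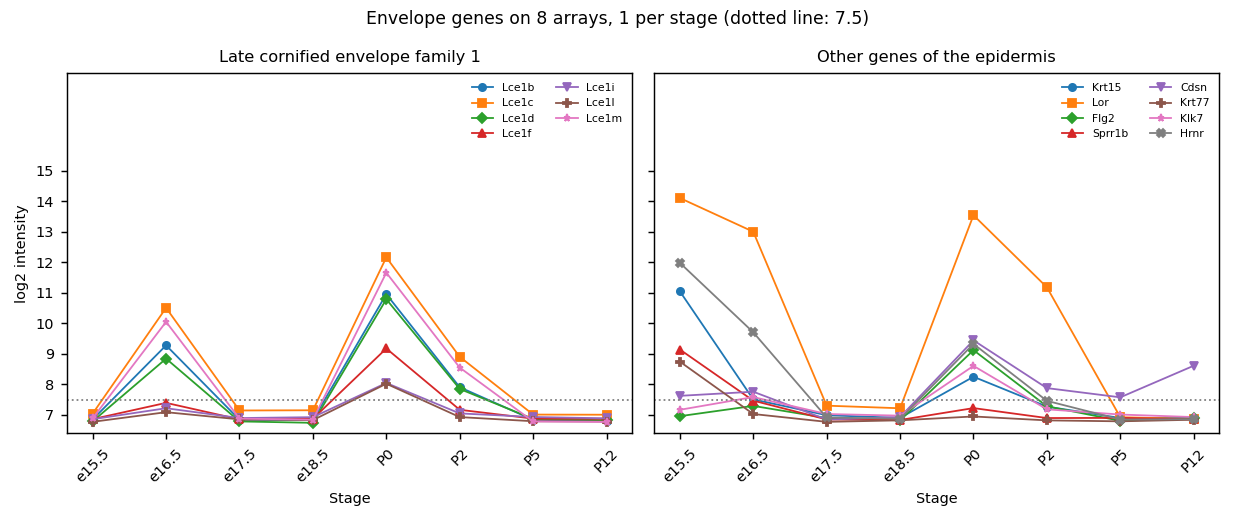
Log2 intensity (y axis) at 8 stages (x axis), 1 pooled array per stage, of the 7 Lce1 genes with a range of at least 2-fold (left) and of 8 other genes of the epidermis (right), with a dotted line at 7.5. The Lce1 genes are near the floor at e15.5 and highest at P0, and 4 of them are also above 7.5 at e16.5, whereas Lor is high on all of e15.5, e16.5, P0 and P2 and Sprr1b, Krt15, Krt77 and Hrnr are highest at e15.5.

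Over the 17 measured genes of the wider cornified list 8 were at least 2-fold higher and 2 at least 2-fold lower at P0 than at e15.5 (2.81% and 2.85% of all features). Of the 8, 7 were the Lce1 genes above, and the other was Sprr2d, a small proline-rich gene (8.02 at P0, 6.90 at e15.5). The 2 lower ones were Hrnr, the filaggrin-like protein hornerin (9.33 at P0, 11.98 at e15.5), and Ppl, or periplakin (8.62 and 11.04). In the wider suprabasal and barrier list of 20 measured genes 1 was higher and 5 were lower by at least 2-fold at P0. The higher one was Klk7, a protease of the outer layer (8.61 at P0, 7.17 at e15.5). The lower ones were Sbsn, Asprv1, Alox12b, Elovl4 and Krt77, a suprabasal keratin (6.95 at P0, 8.75 at e15.5). Klk7, Krt77, Alox12b, Sprr2d and Ppl were picked after their values were seen.

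Of the desmosome and junction genes only Pkp1 left the floor. This plakophilin, which anchors keratin filaments to desmosomes, was 9.72 at e15.5, 7.69 at e16.5 and 8.35 at P0, and at most 7.29 on the other 5 arrays. Dsc1, a desmocollin of the upper layers, was 7.49 at e15.5 and 7.05 or less elsewhere. The desmogleins Dsg1a and Dsg3 and the p63 target Perp lay between 6.74 and 6.90 on every array, and cannot be ordered by stage. In the wider junction list 4 of 10 measured genes reached 7.5. Cldn4, a claudin of tight junctions, was 7.89 at P0 and 9.01 at e15.5, and Cdh1, or E-cadherin, was 7.47 at P0 and 7.95 at e15.5.

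The follicle label rested on a single gene. Krt17, a keratin of the outer root sheath that early epidermis also makes, was 10.21 at e15.5, 7.69 at e16.5, 6.97 at e17.5, 7.27 at e18.5, 10.26 at P0, 8.50 at P2, with 6.85 at P5 and 6.88 at P12. It was level between P0 and e15.5 (difference 0.05) and 1.76-fold higher at P2 than at e16.5, where Krt14 was level. Krt25, Krt27 and Krt71, keratins of the inner root sheath, stayed below 7.5 on every array. Krt27 had its highest values at P0 (7.33) and P2 (7.14), against 6.84 to 6.90 on the other 6, and Krt71 likewise (7.01 and 6.94, against 6.73 to 6.80). Krt25 stayed between 6.79 and 6.85. Of the 20 measured genes in a wider follicle list, 2 reached 7.5. Gata3, a regulator of the inner root sheath, was 8.10 at e15.5. Krt79, a keratin of the follicle canal, had another profile, with 7.13 at e15.5, then 7.54 at e18.5 and a peak of 8.84 at P5. Its rise over stage passed the trend test (0.21 log2 per stage, limma adjusted p = 0.0118), as did that of 18.3% of all 7446 features tested. The mature hair keratins Krt31, Krt33a, Krt34, Krt35 and Krt86 did not exceed 7.09. These probes give no measured level for the inner root sheath or hair shaft.

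Set side by side, the arrays with most epidermal signal differed in its make-up. For P0 over e15.5, 2 of 27 members were at least 2-fold higher (2.81% of all features were) and 9 at least 2-fold lower (2.85%), or 11 in either direction (5.66%). The median difference was -0.44 log2 over the members and -0.01 over all features. By group, 2 of 4 basal, 5 of 8 suprabasal, 1 of 6 cornified, 1 of 5 junction and 0 of 4 follicle genes were lower, and the 2 higher ones were cornified. The members just beyond 2-fold as deposited were Trp63 (-1.12) and Sfn (-1.20), and Krt14 (-0.68) was the nearest within it. Sfn was 7.29 at P0, below the floor, and at least 1.97-fold lower when set against 7.5.

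For e16.5 over e15.5, 0 of 27 were at least 2-fold higher (0.513% of all features) and 15 lower (1.77%, and 2.28% in either direction), with a median of -1.51. All 4 basal genes were among the 15, with differences from -3.54 to -1.75. Of the 6 cornified genes 2 were, Lor and Sprr1b. Of the others, Flg2, Ivl and Sprr1a were below 7.5 on at least 1 of these arrays, and Cdsn was 7.76 at e16.5 and 7.62 at e15.5. For P2 over e16.5, 0 of 27 were higher (2.15%) and 4 lower (1.71%, and 3.86% in either direction). The 4 were the differentiation genes Krt10 (-1.38), Krtdap (-1.49), Dmkn (-1.60) and Lor (-1.82), and no basal gene differed by more than 0.42.

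**Figure D3:**
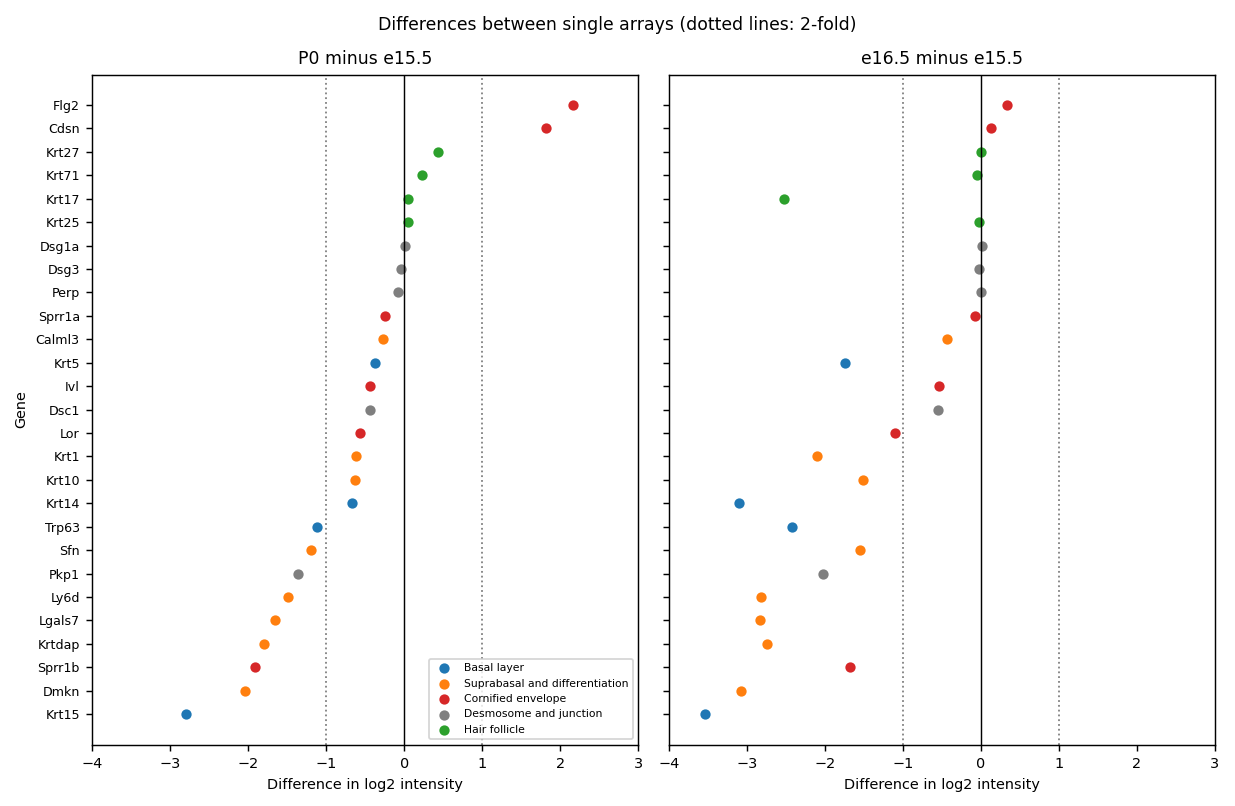
Difference in log2 intensity (x axis) of each of 27 genes (y axis, ordered by the left panel) for P0 minus e15.5 (left) and e16.5 minus e15.5 (right), single arrays, coloured by role, with dotted lines at 2-fold. Flg2 and Cdsn lie to the right of 1 at P0 and near 0 at e16.5, and Krt15 lies furthest to the left in both panels.

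Across birth, 14 of 27 members were at least 2-fold higher at P0 than at e18.5 (0.77% of all features) and 0 lower (0.699%, and 1.47% in either direction). Over the next step 12 were lower at P2 than at P0 (0.808%) and 0 higher (0.344%, either way 1.15%), and 6 were lower at P5 than at P2 (0.874%) and 0 higher (0.617%, either way 1.49%). For e17.5 over e16.5, 6 were lower (0.24%) and 0 higher (0.907%, either way 1.15%). Lor, Krt10, Krt14, Dmkn and Krtdap had the largest differences across birth, from 3.49 log2 for Krtdap to 6.33 for Lor.

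Skeletal muscle markers moved with the epidermal genes in part. The 18 measured muscle markers averaged 11.53 at e15.5, 8.57 at e16.5, 8.37 at e17.5, 7.53 at e18.5, 10.54 at P0, 8.11 at P2, with 7.42 at P5 and 7.48 at P12. Between e17.5 and e16.5 the muscle mean differed by little (8.37 and 8.57), while the suprabasal mean was 7.36 at e17.5 and 8.98 at e16.5, and Lor was 7.30 at e17.5 and 13.00 at e16.5. The part of muscle in the epidermal levels was not tested. Of markers of other skin cells, 0 of 8 measured melanocyte genes reached 7.5 on any array, and Dct, which melanoblasts express, was 7.28 at most. Of 5 sebaceous genes 1 reached it, Elovl3, at P0 (7.70), which brown fat expresses as well. Cd207 of Langerhans cells and Krt20 and Atoh1 of Merkel cells stayed below 7.5, and Piezo2, which sensory neurons also express, was 8.45 at e15.5. Of 10 measured genes of the dermis and dermal papilla 8 reached 7.5. At P0 3 were at least 2-fold lower than at e15.5, as were 2.85% of all features. They were Crabp1 (6.90 at P0, 8.96 at e15.5), Lum (11.60 and 12.74) and Twist2 (9.22 and 10.53). Of the 7 tested, Twist2 and Col1a1 fell over stage (limma adjusted p = 0.00576 and 0.0137), as did 20.7% of all 7446 features tested. Fat stroma expresses several of these genes as well, and the dermal papilla genes Sox2 and Corin stayed below 7.5.

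**Figure D4:**
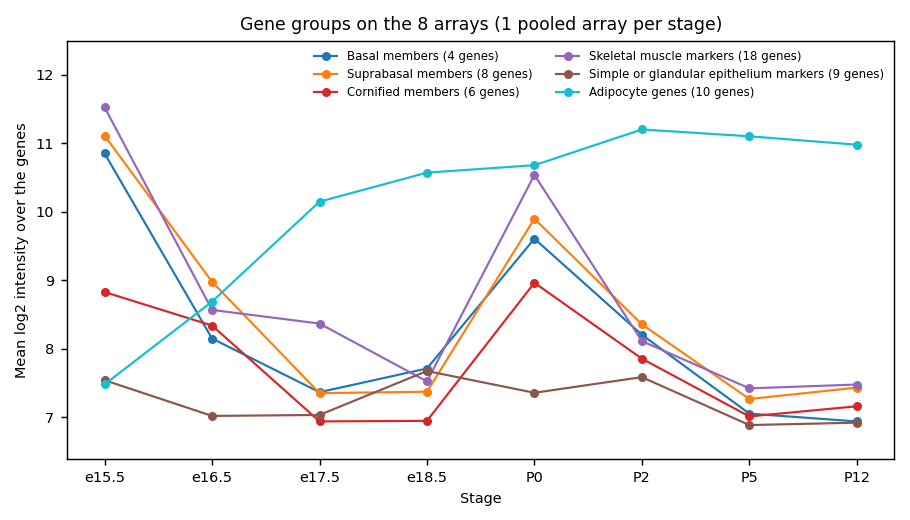
Mean log2 intensity (y axis) over the genes of 6 groups at 8 stages (x axis), 1 pooled array per stage; each line is the mean of the genes with a probe. The epidermal and muscle means are highest at e15.5 and P0, the adipocyte mean is 7.48 at e15.5 and 10.15 or more from e17.5 on, and at e16.5 and e17.5 the muscle means are close while the epidermal means differ.

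Beyond the 30 genes, the 10 named features most like the mean of Krt5 and Krt14 over the 8 arrays had Pearson r from 0.96 to 0.98, given as a description since all values share the same 8 pools. They were Casp14, Nptx2, Ggct, Lypd3, Krt23, Fam25c, Tuft1, Ly6g6c, Ocln and Pof1b. Casp14, the caspase of cornification, was 10.45 at e15.5, 8.13 at e16.5, 9.99 at P0 and 7.83 at P2, and at most 6.83 elsewhere. Ly6g6c was 12.66, 9.23, 10.70 and 8.12 on those arrays. Nptx2 and Ocln never reached 7.5, so their likeness rests on values at the floor. Among the wider lists, Asprv1, a protease that processes filaggrin, was 11.70 at e15.5, 9.64 at e16.5, 8.15 at e18.5 and 10.21 at P0. Col17a1, a collagen of the hemidesmosome, was 8.82 at P0 and 9.94 at e15.5.

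A line over stage was fitted to all 7446 features that reached 7.5 on at least 2 arrays, 14 of the 30 members among them. With limma, 0 of 14 rose and 0 fell at an adjusted p of 0.05, where 18.3% of all features rose and 20.7% fell (39% in all). An unadjusted p below 0.05 was found for 4 of the 14 members and for 3702 of all 7446 features. The members thus held no excess of such values. Trp63 came nearest, at -0.25 log2 per stage (SE 0.10, adjusted p = 0.0719). Lor had the steepest slope, -0.75 (SE 0.38, adjusted p = 0.147). Calls rested on single arrays: without e16.5 Trp63 fell (limma adjusted p = 0.0164), and without e17.5 Krtdap and Lgals7 fell. The intervals were wide: the 95% interval for Lor was -1.62 to 0.12. In the wider lists that the trend test covered, 1 of 5 other basal genes fell, 1 of 8 suprabasal and barrier genes fell, 0 of 6 other cornified genes moved, and 1 of 2 junction genes fell.

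The 4 postnatal arrays were set against the 4 embryonic ones in the same way. With limma 0 of 14 members were higher or lower after birth, where 0.0134% of all features were higher and 0% lower. An unadjusted p below 0.05 was found for 2449 of all 7446 features, and among the 14 members for 1. That was Cdsn, which averaged 8.38 ± 0.83 on postnatal and 7.29 ± 0.47 on embryonic arrays (SD, n = 4 each), 1.09 log2 higher after birth (SE 0.42, adjusted p = 0.121 in limma). With array weights it passed (limma adjusted p = 0.0439), as did 24.1% of all features. The second Cdsn probe was 7.57 at P0 and at most 7.14 elsewhere, so the size of the Cdsn difference rests on 1 probe. Lor averaged 9.63 ± 3.30 on postnatal and 10.41 ± 3.66 on embryonic arrays (SD, n = 4 each). For Lor the spread within each period exceeded the difference between them. The stages within a period are not replicates of each other.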

How the data were processed

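Biotin-labelled amplified RNA was read on MouseRef-8 BeadChips (Illumina) and extracted in BeadStudio, according to the protocols in the labels. The deposited log2 intensities are the authors' processed values, and base 2 was inferred from their span (6.66 to 15.10). The sorted values of the 8 columns were equal to within 0.00496, so a change in total signal between stages is hidden. How they were normalized, background-corrected or offset is not stated in the labels. A second deposited table was not used, since its 16 per-sample columns carry names that match no sample label.

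Probe names follow the array platform's annotation: 23978 of 25697 had 1 symbol, 0 several and 1719 none here. The probe of a gene was the one with the highest mean, giving 18312 features. For the fits a feature had to reach 7.5 on at least 2 of 8 arrays, which left 7446 features, 6934 of them named. The limma package (3.58.1, R 4.3.3) was used with Benjamini-Hochberg adjustment over these 7446 features at 0.05, once with stage order 1 to 8 as a line (6 residual degrees of freedom) and once with 4 postnatal against 4 embryonic arrays. Differences between single stages, later minus earlier, were counted at 2-fold or more over all features, with no p-value, since the number of arrays limits the precision. These counts use the values as deposited unless a floor is named. Where the dimmer level was below 7.5, a quoted fold was computed against 7.5 and is a lower bound.

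The members, lists and tests were chosen with earlier results of these data known. Genes named are the 30 members, up to 4 genes per wider list by range, and the 10 features most like Krt5 and Krt14. Others were named after their values were seen. Alternatives were the filter, the probe rule, array weights, the variance prior, age in days, each stage left out, the fold threshold, a floor at 7.5 and medians. The analysis used Python 3.11.15. Promoter windows came from RefSeq sequences of build GRCm38.p6, matched by symbol. They describe that annotation, and no build is named for the array values.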

Additional observations from a re-analysis of the deposited data

Results flagged for a closer look

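Within the 4 embryonic or the 4 postnatal arrays, 8 of 54 gene and period combinations had 1 array far from the other 3, by the gap to the nearest array relative to the whole range (Dixon's test at its 95% critical value). For 4 draws from 1 population chance gives about 1 such case in 20 groups. That rate is no baseline here, since the 4 arrays are different stages and the genes share them. The members were also chosen with earlier results of these data known, so the count is a description only. Among the embryonic arrays the e15.5 array stood above the others for Krt15 (11.05, others 6.90 to 7.51), Krt5 (8.76, others 6.81 to 7.01), Sfn (8.48, others 6.75 to 6.93) and Krt71 (6.79, others 6.73 to 6.74), and the e17.5 array below them for Krt27 (6.85, others 6.90). Among the postnatal arrays P0 stood above the others for Krt5 (8.38, others 6.85 to 7.02) and Sprr1b (7.22, others 6.85 to 6.90), and P5 for Sprr1a (7.07, others 6.98 to 6.99). The Krt71, Krt27, Sprr1b and Sprr1a values lie below 7.5, near the floor, where distances of this size carry no measured level.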

How the results depend on the processing

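No paired analysis was possible because each stage has 1 array. The counts of members at least 2-fold apart kept within 1.5 times of the reported count in 17 of 21 comparisons. The other 4 were counts at 4-fold: 5 for P2 over P0, 3 for P5 over P2, 3 for P0 over e15.5 and 0 for P2 over e16.5. The P0 minus e15.5 differences of the 5 group means kept their sign in all 10 alternatives. The number of members past the trend test was 0 in 13 of 15 alternatives, and ran from 0 to 2 when single stages were left out: without e16.5 Trp63 fell (adjusted p = 0.0164), and without e17.5 Krtdap and Lgals7 fell. Without both e15.5 and P0, a choice made after seeing the data, it was 0. For birth it was 0 in 13 of 14 alternatives, 0 throughout when single stages were left out, and 1 with array weights, where Cdsn was higher after birth (adjusted p = 0.0439, with 24.1% of all features called). Over all 7446 features 2905 passed the trend test, against 1888 without P12 and 1889 with age in days. The birth test passed 1 feature, against 277 with 7.5 required on all 8 arrays, 1798 with array weights, 4 with no filter, 1875 without e18.5, 13 without P0, 6 without both e15.5 and P0, and 0 without any 1 of the other 6 stages. The cause of these changes was not tested. Signal near the floor limits what can be said of 8 of the 27 measured members, which never reached 7.5, and of 5 more that reached it on 1 array.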
